A study of Ovis aries with 30 samples.

Results

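The change in gene expression from 10 weeks after birth to adulthood was compared between lung and kidney of sheep (Ovis aries). The quantity followed here is the organ difference in that change: adult lung minus lung at 10 weeks, less adult kidney minus kidney at 10 weeks. It is positive where a gene went up more, or down less, in lung. All 9155 genes that the array annotation gives as the only symbol of a probe set were included. For 697 of them the probe set used is of the kind that matches several transcripts. Where a gene had several probe sets, the brightest on average across all 30 arrays was used. The comparison uses 20 of those 30 arrays: 5 of lung at 10 weeks, 5 of adult lung, 5 of kidney at 10 weeks and 5 of adult kidney. The other 10 arrays, of fetal lung and kidney, entered an alternative fit only. The labels give no exact adult age, no breed or strain, no sex and no treatment. By its title, the study asks how the pace of a genetic program for growth relates to adult body size across mammals. Each array carried labelled RNA from frozen tissue on an Affymetrix array designed for cattle, and transcripts that differ between the species can read low. Values are log2 expression, and a difference of 1 is a doubling.

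In fast-growing young mammals many tissues express a shared set of growth-related genes. Several are imprinted, meaning that a single parental copy is active. The set declines as the animal approaches adult size, along with genes of cell division and of matrix deposition. Lung and kidney also mature after birth in ways of their own: the lung adds alveoli and meets inhaled particles and microbes, while the kidney elongates its tubules and adjusts salt, water and acid transport.

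The 20 arrays separated by organ on the first principal component, which held 80.1% of the variance. Lung arrays held the surfactant transcript SFTPC at 12.10 to 12.57 and kidney arrays at 5.34 to 5.88, whereas the tubule transcript UMOD read 12.44 to 13.26 in kidney and 5.21 to 6.10 in lung. The kidney marker SLC12A1 read 3.96 to 4.40 in kidney and 3.62 to 4.16 in lung, so its probe set did not tell the organs apart. Arrays of a group correlated at 0.973 or higher across genes. Array Lung-10WK-12 (mean correlation 0.980 with its group) and array Kidney-AD-444 (0.984) stood lowest, and they received the lowest array quality weights (0.23 and 0.34). Without both of them, an alternative added with the values known, 8 of the 68 called genes named by rule lost the call. The rule is given with the processing, and the adjusted p without these arrays stands beside each of the 8. NR4A1, HSPA8, COL12A1, FGF11 and MLLT3, also called, are outside the 68. Tissue was measured in bulk, so fewer cells of a type and less RNA per cell cannot be told apart. Adult lung and adult kidney carry different numbers in their titles (Lung-AD-204 to Lung-AD-299 and Kidney-AD-432 to Kidney-AD-444). Arrays are called by those titles. In adults the organ and the set of animals therefore cannot be told apart.

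The organs differed in their change for 295 of 9155 genes (3.22%) at a limma p-value adjusted by Benjamini and Hochberg under 0.05, which is what called means below. The values after ± are standard errors of the fit. The lung change was the higher of the pair for 197 genes (2.15%) and the lower for 98 (1.07%). The absolute difference among these genes ran from 0.46 upward with a median of 0.97, and it reached 2 or more for 17 genes. Most of them moved in lung. Of the 295 genes, 214 passed the test in lung and not in kidney, 39 in kidney and not in lung, 9 in both organs in opposite directions, and 33 in neither organ alone. Of the 295, 0 passed in both organs in the same direction. Some of these genes read low in the organ that did not pass. Both kidney means lay under 6.47, the bound of the lowest 25% of gene means, for 64 of the 214. The same held for 2352 of all 9155 genes. Both lung means lay under 6.47 for 12 of the 39, against 2189 of all genes. On its own, lung changed in 951 genes (10.4%), with 599 higher (6.54%) and 352 lower (3.84%) in the adult. Kidney changed in 195 genes (2.13%), with 87 higher (0.95%) and 108 lower (1.18%). Of the 214 genes called in lung only, the lung arrays of the 2 ages did not overlap for 164, against 8.78% of all genes, and of the 39 called in kidney only the kidney arrays did not overlap for 33, against 3.82% of all genes. Because the difference is computed from the lung and kidney changes, these counts describe its shape and are not separate evidence.

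The direction of the split depended on how the arrays were scaled. Repeated quantile normalisation of the 20 arrays gave 354 genes, 179 higher and 175 lower, and centring each array on its median gave 313, 135 higher and 178 lower. The median difference over all genes was 0.05 as deposited, -0.01 after quantile normalisation and -0.06 after centring. Higher calls were thus the more numerous as deposited and the fewer after centring. The medians of most gene lists below are also given relative to the median of all genes. Counts of list members are to be read beside the shares of all genes given above.

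**Figure D1:**
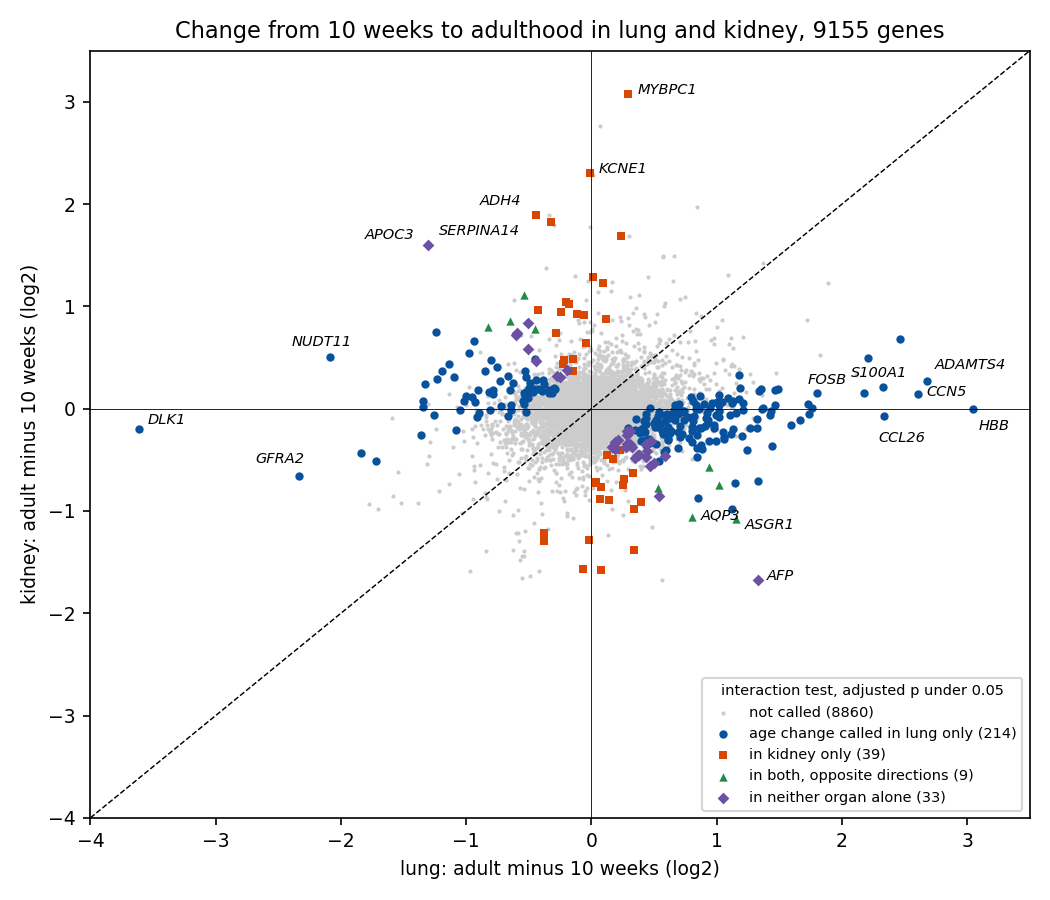
Change from 10 weeks to adulthood in lung (horizontal axis) and kidney (vertical axis), as log2 differences of the means of 5 arrays per group, for 9155 genes. Coloured symbols are the 295 genes whose changes differ, and the dashed line marks equal change; 214 of them passed the test in lung and not in kidney, and DLK1 is the point farthest to the left, at a lung change of -3.61.

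The largest difference in either direction belonged to DLK1, an imprinted gene for a Notch-related membrane protein of growing tissue. Its level in lung at 10 weeks was 10.00, 10.14, 8.75, 10.01 and 10.69 in the 5 arrays, and in adult lung it was 6.89, 5.83, 6.76, 5.93 and 6.12. In kidney it read 12.45, 12.24, 12.14, 12.28 and 12.56 at 10 weeks and 12.32, 12.26, 12.49, 11.98 and 11.64 in adults. Every adult lung array lay below every young lung array, while the kidney arrays overlapped and stayed high. DLK1 fell by 3.61 ± 0.27 (standard error) in lung, about 12.2-fold, against a kidney change of -0.20 ± 0.27 (adjusted p = 0.877). The difference of -3.42 ± 0.38 had an adjusted p of 4.45e-05, and it stayed below the threshold in all 20 fits that each left out 1 array. A dimmer DLK1 probe set gave -1.50, with lung means of 7.6 and 5.83 and kidney means of 10.08 and 9.82.

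Other genes fell in lung without passing the test in kidney. GFRA2, a receptor subunit for the neurotrophic factor neurturin, was 8.70, 8.18, 8.35, 8.40 and 8.90 in lung at 10 weeks and 6.32, 6.07, 6.40, 6.11 and 5.98 in adult lung. The groups were far apart, and kidney read 5.82 to 6.59 at 10 weeks and 4.60 to 6.24 in adults. GFRA2 fell by 2.34 ± 0.23 in lung against a kidney change of -0.65 (difference -1.68, adjusted p = 0.00733). NUDT11, an enzyme that hydrolyses inositol pyrophosphates, stood at 5.98, 5.64, 5.99, 5.79 and 4.64 in young lung and at 3.32, 3.90, 3.80, 3.24 and 3.32 in adult lung. In kidney NUDT11 was 6.75 to 7.40 at 10 weeks and 7.46 to 7.99 in adults, and the difference was -2.60 ± 0.30 (adjusted p = 4.46e-05). A second NUDT11 probe set gave a difference of 0.09. EDN1, the vasoconstrictor endothelin 1, fell from a lung mean of 11.74 to 10.81, and its kidney change of 0.66 did not pass (difference -1.60 ± 0.33, adjusted p = 0.0098). ANKRD1, a nuclear ankyrin-repeat protein, fell from 6.36 to 5.12 in lung, where the arrays of the ages overlapped, with a difference of -1.98 ± 0.42 (adjusted p = 0.0104). With the fetal arrays added to the fit the adjusted p of EDN1 was 0.096.

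Of 19 measured imprinted growth genes 10 passed the test as lower in lung and 2 in kidney, against 3.84% and 1.18% of all genes. In either organ 0 passed as higher. The difference was called with a lower lung change for 4 of the 19 and with a higher one for 1, against 1.07% and 2.15% of all genes. Called or not, 6 of the 19 had a difference above 0. Besides DLK1, the members called lower were PEG10, derived from a retrotransposon, MAGEL2, a ubiquitin ligase partner, and CDKN1C, an inhibitor of cell division. PEG10 was 9.65, 9.31, 8.91, 9.13 and 9.21 in young lung and 7.80, 8.10, 7.81, 7.49 and 8.22 in adult lung. In kidney PEG10 read 10.41 to 11.01 at 10 weeks and 10.27 to 10.81 in adults. The lung groups were separate and the kidney groups overlapped, and the difference was -1.10 ± 0.21 (adjusted p = 0.00725). MAGEL2 fell by 0.81 in lung, from 8.28 to 8.72 at 10 weeks to 7.44 to 8.22 in adults, against a kidney change of 0.48 that did not pass (difference -1.28 ± 0.30, adjusted p = 0.0221). CDKN1C fell by 0.54 in lung with a kidney change of 0.05 (difference -0.59 ± 0.16, adjusted p = 0.0428). That call was the weakest of the 4: it was kept in 6 of the 20 fits that left out an array, and the adjusted p reached 0.0792 without array Lung-AD-204.

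NNAT, an imprinted proteolipid gene, went the other way. It fell in kidney, from 7.0, 7.43, 6.65, 6.99 and 6.64 to 6.42, 5.96, 5.99, 6.21 and 5.73, and read 8.99 to 9.50 and 8.91 to 9.62 in lung at the 2 ages. The difference of 0.95 ± 0.24 (adjusted p = 0.0304) was called in 13 of 20 fits with an array left out, its adjusted p reached 0.0617 without array Lung-AD-286, and it was 0.0651 after centring and 0.33 with the fetal arrays in the fit. A second NNAT probe set gave -0.07. The list's median difference was -0.14, or -0.19 relative to all genes.

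Several growth genes fell in lung while their difference from kidney did not pass the test. IGF2, the fetal insulin-like growth factor, was 9.63, 9.53, 8.78, 9.89 and 9.69 in young lung and 7.94, 8.93, 7.28, 7.6 and 8.15 in adult lung. In kidney it was 9.58, 8.61, 9.46, 9.21 and 9.82, then 8.78, 9.33, 7.92, 8.55 and 7.48. In both organs the adult mean was lower, and at least 1 adult array overlapped the young ones. IGF2 fell by 1.52 ± 0.32 in lung (adjusted p = 0.00434) and its kidney change was -0.92 ± 0.32 (adjusted p = 0.188). Their difference of -0.60 had a 95% interval from -1.56 to 0.36 (adjusted p = 0.532). IGF2BP3, which binds RNA in fetal tissue, fell by 1.71 in lung against a kidney change of -0.98 (difference -0.73, interval -1.67 to 0.22). PEG3, an imprinted zinc finger gene, fell by 1.38 in lung against -0.92 in kidney (difference -0.46, interval -1.22 to 0.30). PLAGL1, an imprinted zinc finger regulator, fell by 0.67 in lung against -0.18 in kidney (difference -0.49, interval -0.942 to -0.045, adjusted p = 0.222). The interval of PLAGL1 leaves out 0, but the intervals are not adjusted for the number of genes tested. The other, dimmer probe sets gave differences of -0.21, -0.03 and 0.31 for IGF2. For PEG3 they gave -0.05, 0.15, -0.09 and 0.001. The intervals of IGF2 and IGF2BP3 hold both 0 and the difference measured for MAGEL2.

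MEST, an imprinted hydrolase of growing tissue, fell in both organs: by 0.97 in lung, where the young arrays read 9.81 to 10.03 and the adult ones 8.35 to 9.66, and by 1.58 in kidney, from 7.41 to 8.46 down to 5.93 to 6.72. The difference of 0.62 did not pass (interval -0.01 to 1.24, adjusted p = 0.286). A MEST probe set of similar brightness read 9.54 and 9.44 in lung and 8.80 and 8.91 in kidney, with a difference of -0.21. Among the fetal growth regulators 1 of 10 was called, against 3.22% of all genes: TMEFF1, a membrane protein with follistatin domains. TMEFF1 fell in lung from 10.94, 10.67, 10.91, 10.90 and 10.64 to 9.05, 9.80, 9.91, 9.81 and 9.99, while kidney read 8.29 to 8.67 and 8.21 to 9.23. Its difference was -1.41 ± 0.24 (adjusted p = 0.00212, and 0.066 with the fetal arrays in the fit). The heparan sulfate proteoglycan GPC3 fell by 0.68 in lung and 0.70 in kidney, and the growth factor PTN fell by 0.84 and 0.87, with differences of 0.02 for each (intervals -0.38 to 0.42 and -0.59 to 0.64). In the insulin-like growth factor and growth hormone axis 0 of 16 genes were called, against 3.22% of all genes. IGF1 fell by 0.42 in lung with a kidney change of -0.02 (difference -0.40, unadjusted interval -0.744 to -0.059, adjusted p = 0.193). A replicate block treats 10-week arrays of both organs with the same title number as related. With that block and without arrays Lung-10WK-12 and Kidney-10WK-9, whose numbers are not shared, the IGF1 difference was called (-0.49, adjusted p = 0.0487), as it was with the mean of its probe sets (-0.51, adjusted p = 0.0146). In the fit without a block, the differences of the receptors IGF1R (0.30) and GHR (0.12) had adjusted p = 0.639 and 0.889. The RNA-binding protein IGF2BP1 and the histone methyltransferase EZH2 differed by 0.09 and 0.11, with adjusted p = 0.850 and 0.874.

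**Figure D2:**
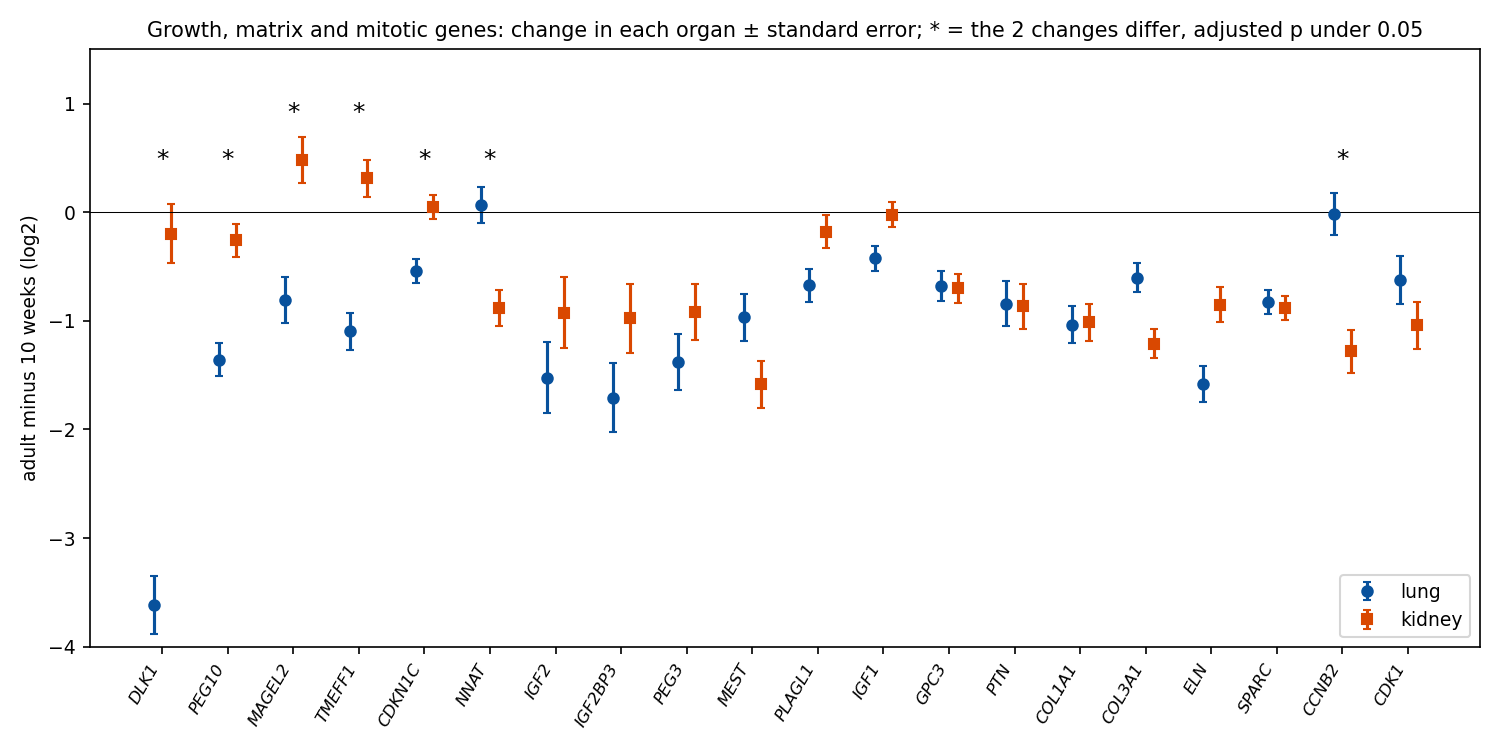
Change from 10 weeks to adulthood (log2, vertical axis) in lung (circles) and kidney (squares) for 20 growth, matrix and mitotic genes, with the standard error of each change from 5 arrays per group. Asterisks mark genes whose changes differ between organs; DLK1 has the widest gap, at -3.61 against -0.20, while GPC3, PTN, COL1A1 and SPARC fell in both organs.

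Of 44 measured mitotic cell cycle genes 16 passed the test as lower in kidney and 1 in lung, against 1.18% and 3.84% of all genes. The list's median change was below 0 in both organs, at -0.49 in kidney and -0.21 in lung. Of the 44, 34 had a difference above 0, against 5298 of all 9155 genes. The list's median difference was 0.33, or 0.28 relative to all genes. CCNB2, a mitotic cyclin, was the only member whose difference passed (1.27 ± 0.28, adjusted p = 0.0139). It read 7.77, 7.42, 6.79, 7.50 and 6.77 in young kidney and 5.88, 6.37, 6.10, 5.46 and 6.02 in adult kidney. In lung CCNB2 was 7.70 to 7.99 and 7.32 to 8.21, with overlap. The related cyclin CCNB1 fell by 1.65 in kidney with a lung change of -0.55 (difference 1.10, adjusted p = 0.104), and the chromosomal passenger gene CDCA8 fell by 1.64 with a lung change of -0.49 (difference 1.15, adjusted p = 0.145). The mitotic kinase CDK1 fell by 1.04 in kidney and changed by -0.62 in lung (difference 0.42, adjusted p = 0.511). The mean of the list ran from 7.54 to 7.88 in young lung and from 7.20 to 7.81 in adult lung, where array Lung-AD-204 was highest. In kidney it ran from 6.97 to 7.50 at 10 weeks and from 6.57 to 6.66 in adults. A mitotic kinase partner gene, BUB1B, was the member that passed the test in lung (-0.67), with a kidney change of -0.12.

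The members of the matrix list that differed pointed both ways. Of 36 fibrillar collagen and elastic fibre genes measured, 9 fell and 2 rose in lung, 10 fell and 1 rose in kidney, and the median difference was 0.01. Of all genes 3.84% fell and 6.54% rose in lung, and 1.18% fell and 0.95% rose in kidney. The difference passed for 3 in the direction of a higher lung change, against 2.15% of all genes. SERPINH1, the chaperone of collagen folding, fell in kidney from 10.82 to 11.20 at 10 weeks down to 9.97 to 10.58, and read 11.15 to 11.25 and 11.07 to 11.37 in lung (difference 0.76 ± 0.16, adjusted p = 0.0125). COL5A2, a chain of type V collagen, fell by 1.21 in kidney against a lung change of -0.38 (difference 0.84, adjusted p = 0.0167, and 0.0715 after centring). POSTN, the matricellular protein periostin, rose in lung from 8.70 to 9.18 up to 9.14 to 10.43, with a difference of 1.23 ± 0.27 (adjusted p = 0.0138). In the other direction, COL12A1, a collagen that coats fibrils, fell by 0.64 in lung with a kidney change of 0.04 (difference -0.68), and LOX, the enzyme that cross-links collagen and elastin, changed by -0.51 in lung and 0.58 in kidney (difference -1.09, adjusted p = 0.0186). With the fetal arrays in the fit the adjusted p was 0.0841 for SERPINH1 and 0.148 for LOX.

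The main fibrillar collagens fell in both organs. COL1A1 was 13.08, 13, 12.71, 12.77 and 13.11 in young lung and 12.40, 11.67, 11.84, 11.72 and 11.87 in adult lung, and 11.26, 10.90, 10.98, 11.56 and 11.57 in young kidney and 10.56, 10.55, 10.24, 9.73 and 10.12 in adult kidney. The ages were separate in each organ. COL1A1 fell by 1.04 in lung and 1.01 in kidney, and the 95% interval of the difference was -0.53 to 0.49. SPARC, which binds collagen, fell by 0.83 and 0.88 (interval -0.28 to 0.38). COL3A1 fell by 0.60 in lung and 1.21 in kidney (difference 0.61, interval 0.221 to 0.995, adjusted p = 0.0752). Elastin (ELN) fell by 1.58 and 0.85 (difference -0.73, interval -1.215 to -0.246, adjusted p = 0.0866). The intervals of COL3A1 and ELN leave out 0, but they are not adjusted for the number of genes tested. The basement membrane genes COL4A1 and NID1 fell by 0.70 and 0.69 in lung and by 0.57 and 0.91 in kidney. The difference was called for 0 of 12 basement membrane genes, against 3.22% of all genes.

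In all, 33 genes changed in the same direction in both organs, 11 higher and 22 lower in adults. The difference passed the threshold for 0 of the 33, against 3.22% of all genes. Of these, 12 belong to a list, and 11 of the 12 fell. They are COL1A1, COL1A2, COL3A1, ELN and SPARC of the fibrillar list, COL4A1 and NID1 of the basement membrane, GPC3 and PTN of the growth regulators, MEST of the imprinted genes, and SNAP25, a vesicle fusion protein of neurons. The member that rose was SCNN1A, the alpha subunit of the epithelial sodium channel, by 0.64 in lung and 0.57 in kidney (interval of the difference -0.32 to 0.46). Outside the lists, GPX7, a peroxidase of the endoplasmic reticulum, fell by 1.14 and 0.74, and BLVRB, which reduces biliverdin, rose by 0.79 and 0.76; both were chosen after their values were seen. For 5 of the 33 genes the unadjusted p of the difference was under 0.05.

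Among genes whose lung change was higher, CCN5, ADAMTS4, CCL26 and S100A1 had large and separate rises in lung. CCN5, a matricellular protein, was 7.75, 6.14, 5.81, 5.81 and 6.11 in young lung and 8.85, 9.26, 9.18, 9.07 and 8.29 in adult lung, and it read 3.91 to 4.52 in all kidney arrays. Array Lung-10WK-7 was the highest of the young arrays and still lay below every adult one. The lung rise of 2.61 ± 0.27 was about 6.10-fold, with a difference from kidney of 2.47 ± 0.38 (adjusted p = 9.7e-04). ADAMTS4, a protease that cleaves the proteoglycan aggrecan, was 6.74, 7.65, 6.85, 6.61 and 6.07 in young lung and 9.73, 9.32, 8.63, 9.77 and 9.89 in adult lung. Its kidney arrays read 5.20 to 5.70 and 5.29 to 6.09, and the difference was 2.41 ± 0.35 (adjusted p = 4.9e-04).

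CCL26, a chemokine that attracts eosinophils, had the smallest p-value of all genes. It was 9.19, 9.86, 10.03, 9.63 and 9.87 in young lung and 12.05, 11.94, 11.79, 12.24 and 12.24 in adult lung. Young kidney read 12.24, 11.96, 12.24, 12.06 and 12.28 and adult kidney 12.19, 12.10, 12.07, 12.31 and 11.75. Adult lung thus stood in the same range as kidney at either age, and young lung alone was low. The difference was 2.41 ± 0.20 (adjusted p = 6.94e-07). S100A1, a calcium-binding protein known from muscle, was 7.90, 8.13, 8.24, 8.28 and 9.27 in young lung and 11.50, 10.81, 10.23, 10.50 and 10.40 in adult lung, with a difference of 2.11 ± 0.35 (adjusted p = 0.00168). A second S100A1 probe set gave 2.13.

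HBB, the beta globin gene, had the largest positive difference (3.05 ± 0.67, adjusted p = 0.015). It was 7.26, 6.02, 6.63, 8.51 and 7.16 in young lung and 12.31, 9.91, 8.38, 9.91 and 10.28 in adult lung, against 5.27 to 5.58 in all kidney arrays. Array Lung-AD-204 stood highest, and 1 adult array lay below the highest young one. Of the 4 HBB probe sets, the one used and a second of the kind that matches several transcripts gave 3.05 and 2.56, and the other 2 gave 0.01 and 0.11. The alpha globin gene HBA read between 4.64 and 5.59 in every array of the comparison. HBB was the member called among 11 red blood cell genes, whose mean ran from 5.22 to 5.49 in young lung and 5.37 to 6.17 in adult lung. The part of blood content in this difference was not tested.

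**Figure D3:**
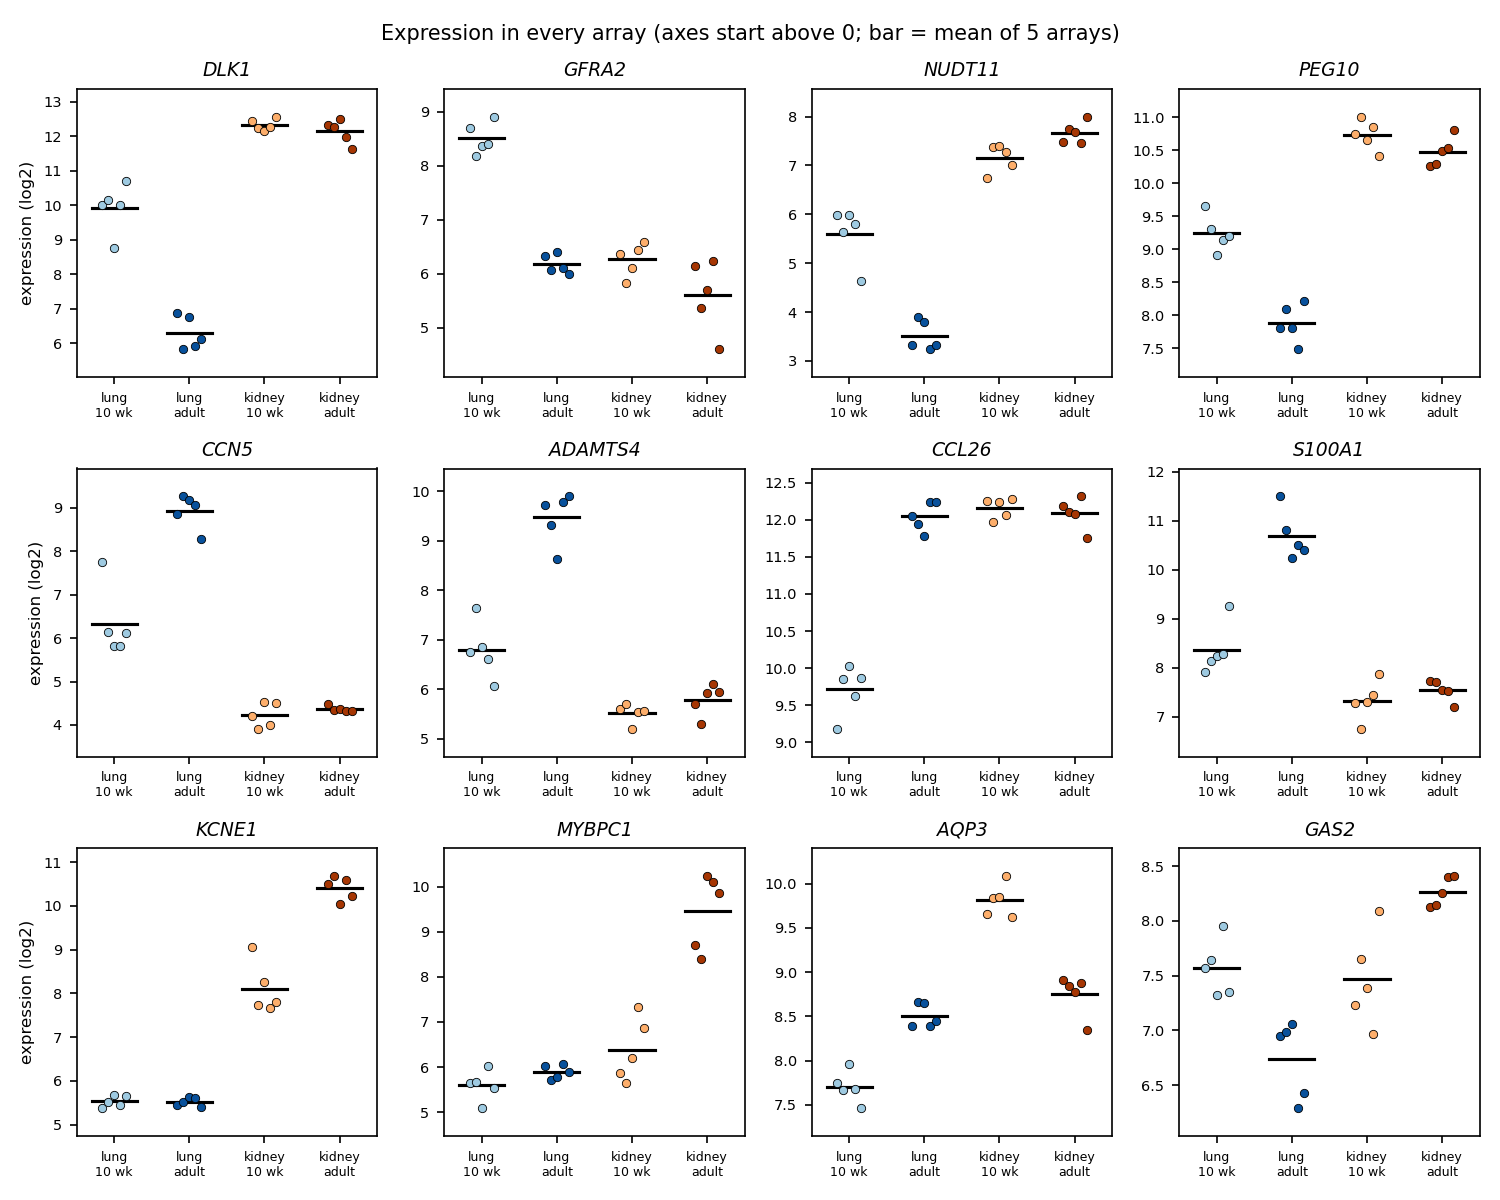
Log2 expression (vertical axes, not starting at 0) of 12 genes in every array of lung and kidney at 10 weeks and in adults, 5 arrays per group, with the group mean as a bar. DLK1, GFRA2, NUDT11 and PEG10 fell in lung, CCN5, ADAMTS4, CCL26 and S100A1 rose in lung, KCNE1 and MYBPC1 rose in kidney, and AQP3 and GAS2 moved in opposite directions in the 2 organs.

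Immediate early and stress genes respond within minutes to handling, heat or injury. Of 30 measured, 13 rose in lung and 1 rose in kidney, and 6 had a higher lung change with 0 lower: FOSB, ATF3, NR4A1, DNAJB1, BAG3 and HSPA8. Of all genes 6.54% rose in lung, 0.95% rose in kidney and 2.15% were called with a higher lung change. FOSB, a transcription factor of the AP-1 family, was 7.35, 9.14, 7.71, 7.77 and 7.67 in young lung and 9.74, 10.80, 8.75, 10.42 and 10.80 in adult lung, and kidney read 4.40 to 4.96 and 4.47 to 5.31. The difference was 2.01 ± 0.47 (adjusted p = 0.0221). ATF3, a stress-induced transcription factor, was 8.86, 9.90, 9.0, 9.14 and 9.07 in young lung and 10.71, 11.50, 10.95, 11.69 and 12.19 in adult lung. In kidney ATF3 read from 8.62 to 9.18 up to 9.39 to 9.61, also separate but not called, and the difference was 1.72 ± 0.31 (adjusted p = 0.00385).

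The heat shock members had differences of 1 or less. DNAJB1, a co-chaperone of Hsp70, was 10.77 to 11.19 in young lung and 11.30 to 12.44 in adult lung (difference 0.97 ± 0.22, adjusted p = 0.0202). BAG3, a chaperone partner, differed by 0.54 (adjusted p = 0.0103), HSPA8, the constitutive Hsp70 protein, by 0.46, and the nuclear receptor NR4A1 by 1.04. The inducible HSPA1A rose by 1.03 in lung but its difference of 0.95 did not pass (adjusted p = 0.0983). The early genes FOS and EGR1 were not called in the difference. FOS was 12.46 to 13.21 and 13.06 to 13.41 in lung and rose by 0.99 in kidney, from 7.6 to 8.94 up to 8.82 to 10.06 (difference -0.63, adjusted p = 0.307). A dimmer FOS probe set went the other way, with a lung change of 0.70, a kidney change of 0.19 and a difference of 0.52. EGR1 read 13.11 to 13.65 and 13.42 to 13.88 in lung (difference -0.29). The mean of the list lay between 10.54 and 11.03 in young lung, with array Lung-10WK-8 highest, and between 11.07 and 11.54 in adult lung. In kidney it lay between 9.82 and 9.97 and between 9.95 and 10.07. After quantile normalisation 5 members were called, and after centring 4: FOSB, ATF3, DNAJB1 and BAG3. Without array Lung-10WK-12 and array Kidney-AD-444, 3 were called: ATF3, DNAJB1 and BAG3. NR4A1 and HSPA8 thus lost the call both after centring and without these arrays. The adjusted p of FOSB was 0.0595 without these arrays and 0.0558 with the fetal arrays in the fit.

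**Figure D4:**
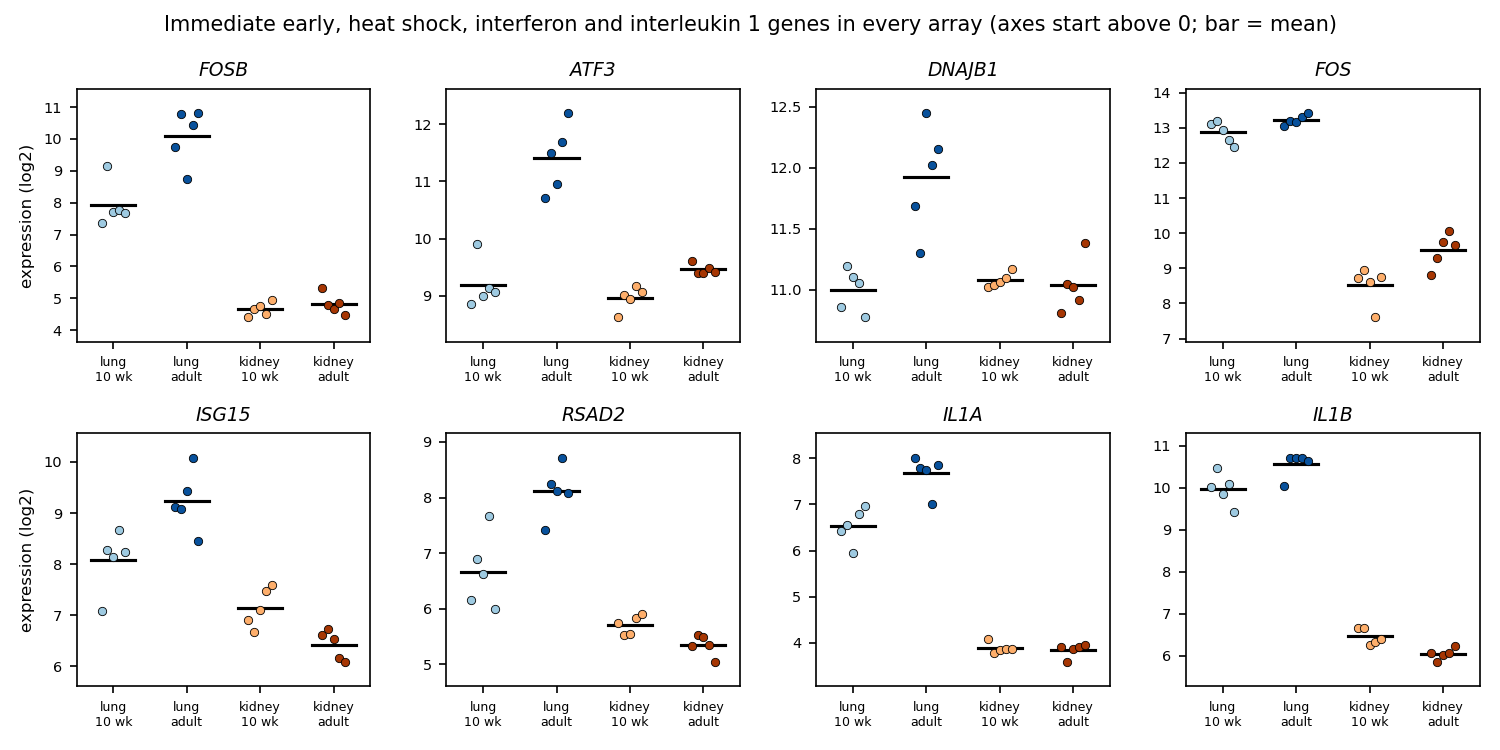
Log2 expression (vertical axes, not starting at 0) of immediate early (FOSB, ATF3, FOS), heat shock (DNAJB1), interferon (ISG15, RSAD2) and interleukin 1 (IL1A, IL1B) genes in every array, 5 per group, with the group mean as a bar. ATF3 reads 10.71 to 12.19 in adult lung, above all other groups, while FOS is near 13 in lung at both ages and rose in kidney.

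A few interferon and interleukin 1 genes rose in lung without passing the test in kidney. Of 31 interferon response genes 2 were called, both higher in the lung change, against 2.15% of all genes. They were ISG15, a ubiquitin-like modifier, and RSAD2, the antiviral enzyme viperin. ISG15 was 7.09, 8.28, 8.14, 8.67 and 8.25 in young lung and 9.13, 9.07, 9.43, 10.08 and 8.46 in adult lung, and in kidney it read 6.67 to 7.6 and 6.09 to 6.73. The groups overlapped in each organ, and the difference was 1.87 ± 0.39 (adjusted p = 0.010). RSAD2 was 5.99 to 7.67 in young lung and 7.41 to 8.72 in adult lung (difference 1.81 ± 0.35, adjusted p = 0.00635). Its kidney change of -0.36 did not pass, though every adult kidney array lay below every young one. The rest of the list was not called, and its median difference was 0.13, or 0.08 relative to all genes. Of 31 inflammation genes 3 were called, all higher in the lung change, beside the same 2.15%. IL1A differed by 1.19 ± 0.25, IL1B by 1.0 ± 0.23 and IL1RN, the antagonist of both, by 1.04 ± 0.25. IL1A was 6.41, 6.55, 5.94, 6.79 and 6.97 in young lung and 8.01, 7.79, 7.75, 7.0 and 7.86 in adult lung, without overlap. IL1B read 9.42 to 10.46 and 10.04 to 10.72 in lung, a change of 0.59. In kidney IL1B changed by -0.41, which did not pass, though every adult array lay below every young one. The kidney changes of IL1A (-0.04) and IL1RN (-0.11) were smaller, with overlap of the ages. After centring IL1B and IL1RN had adjusted p = 0.0531 and 0.0608, so IL1A alone of the 3 kept its call there. The adjusted p was 0.269 for IL1B and 0.235 for IL1RN with the fetal arrays in the fit. IL1RN was also lost in 3 of the 20 fits that left out an array, without array Lung-AD-286, array Kidney-AD-442 or array Lung-10WK-7 (adjusted p up to 0.0521).

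Macrophage and monocyte genes leaned toward a higher change in lung. Of 29 measured, 27 had a difference above 0, against 5298 of all 9155 genes. The difference passed with a higher lung change for 3 and a lower one for 0, against 2.15% and 1.07% of all genes. The list's median difference was 0.49, or 0.43 relative to all genes. The mean of the list was 9.09 to 9.37 in young lung and 9.38 to 9.63 in adult lung, and 7.91 to 8.18 in young kidney and 7.74 to 7.83 in adult kidney. The 3 were CHI3L1, a chitinase-like secreted protein, FCGR2B, the inhibitory immunoglobulin receptor, and TYROBP, a signalling adaptor. CHI3L1 was 8.84, 8.47, 8.30, 8.45 and 8.64 in young lung and 9.78, 9.78, 9.95, 9.58 and 9.16 in adult lung (difference 1.36 ± 0.21, adjusted p = 0.00112). FCGR2B was 6.26 to 7.71 and 8.05 to 8.70 in lung (difference 1.47 ± 0.28, adjusted p = 0.00591). TYROBP differed by 0.71, with an adjusted p of 0.0186 and of 0.0906 with the fetal arrays in the fit. The defining genes CSF1R (11.56 to 12.16 over all lung arrays), CD68 (9.32 to 10.46) and CD14 (6.68 to 7.68) did not pass the test in lung. The part of macrophage number in these differences was not tested.

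Of 24 genes of neutrophils, eosinophils and mast cells 3 were called, all higher in the lung change, against 2.15% of all genes. The list's median difference was 0.08, or 0.03 relative to all genes. S100A8, a subunit of calprotectin, was 10.18, 11, 10.35, 10.04 and 10.30 in young lung and 10.92, 12.18, 11.29, 11.38 and 11.72 in adult lung. In kidney it was 8.25, 7.79, 7.0, 7.64 and 7.63, then 6.05, 6.74, 7.98, 6.31 and 6.34, so that the ages overlapped in each organ. The lung change was 1.12 and the kidney change -0.98 (difference 2.10 ± 0.43, adjusted p = 0.00978, and 0.144 with the fetal arrays in the fit). Its partner S100A9 differed by 0.77 (adjusted p = 0.0743). ALOX15, a lipoxygenase, rose in lung from 7.18 to 8.19 up to 8.37 to 8.80 (difference 0.91, adjusted p = 0.0138, and 0.0502 after centring). CXCR1, a receptor for interleukin 8, differed by 1.68 (adjusted p = 0.0463), a call kept in only 5 of the 20 fits that left out an array, with adjusted p up to 0.0906 without array Kidney-10WK-10. The adjusted p of CXCR1 was 0.0606 with the replicate block on the shared 10-week numbers, 0.0681 after centring, 0.0567 after quantile normalisation and 0.0792 without arrays Lung-10WK-12 and Kidney-AD-444. Of 33 T and NK cell genes, 12 B and plasma cell genes, 13 MHC class II presentation genes and 24 endothelial genes, 0 were called. The share called over all genes was 3.22%.

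Some epithelial genes of the airway and alveolus rose in lung. Of 13 airway and cilia genes 6 rose in lung, 0 changed in kidney and 3 were called with a higher lung change. Of all genes 6.54% rose in lung, 2.13% changed in kidney and 2.15% were called higher. TEKT1, a structural protein of cilia, was 8.04, 8.04, 8.35, 7.75 and 8.17 in young lung and 9.23, 9.40, 9.06, 8.79 and 8.76 in adult lung, with a difference of 1.16 ± 0.22 (adjusted p = 0.00541). TFF3, a trefoil peptide of mucus, went from 9.61 to 10.29 up to 10.86 to 11.58 (difference 1.28 ± 0.26, adjusted p = 0.010), and read 4.68 to 5.70 in kidney. ROPN1L, a protein of cilia and flagella, differed by 0.85 (adjusted p = 0.0317), was called in 14 of the 20 fits with an array left out (adjusted p up to 0.0572 without array Kidney-10WK-10), and had an adjusted p of 0.0816 after centring. The mean of the airway list was 7.67 to 8.29 in young lung and 8.06 to 9.27 in adult lung, lowest in array Lung-AD-204 and highest in array Lung-AD-287. Among 17 surfactant and alveolar type II genes, 5 rose in lung and 2 were called higher, beside the same 6.54% and 2.15% of all genes. SFTPD, a surfactant lectin that binds microbes, was 9.63, 9.97, 9.97, 9.95 and 10.39 in young lung and 10.66, 10.69, 10.78, 10.60 and 10.61 in adult lung (difference 0.91 ± 0.21, adjusted p = 0.0224). MUC1, a membrane mucin, went from 9.08 to 9.42 up to 9.88 to 10.47 (difference 0.86, adjusted p = 0.0208). With the fetal arrays in the fit the adjusted p was 0.123 for MUC1, 0.064 for TFF3 and 0.212 for ROPN1L. That of ROPN1L was 0.0749 without arrays Lung-10WK-12 and Kidney-AD-444. SFTPA1 rose by 0.95 in lung with a difference of 0.66 (adjusted p = 0.0787), and SFTPC (0.17) and SFTPB (0.14) did not pass the test in lung.

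Detoxifying and antioxidant enzymes contributed 3 of 35 members, all with the higher change in lung, against 2.15% of all genes. CYP4B1, a cytochrome P450 of lung, was 10.19, 10.33, 10.42, 9.83 and 10.48 in young lung and 10.75, 11.51, 11.07, 11.49 and 11.32 in adult lung, and 5.23 to 6.05 in kidney (difference 1.13 ± 0.23, adjusted p = 0.00996). GPX3, a secreted glutathione peroxidase made mainly by the kidney, was 8.79, 8.69, 9.79, 9.33 and 9.16 in young lung and 11.15, 11.55, 9.89, 10.34 and 11.51 in adult lung. It stayed at 13.12 to 13.39 and 12.56 to 13.58 in kidney, the low value being array Kidney-AD-444. The difference was 1.79 ± 0.39 (adjusted p = 0.0131, and 0.139 with the fetal arrays in the fit). EPHX2, the soluble epoxide hydrolase, differed by 0.62 (adjusted p = 0.0229, 0.326 as the mean of its probe sets and 0.389 with the fetal arrays in the fit). MT1A, a metal-binding protein induced by glucocorticoids and zinc, was 6.27 to 7.11 in young lung, 6.69 to 9.15 in adult lung, 12.40 to 13.56 in young kidney and 11.62 to 13 in adult kidney. Its difference of 2.04 ± 0.51 (adjusted p = 0.0283) was lost in 5 of the 20 fits with an array left out, with adjusted p up to 0.0572 without array Kidney-10WK-10. For MT1A it was 0.336 with the fetal arrays in the fit and 0.0771 without arrays Lung-10WK-12 and Kidney-AD-444.

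In kidney, the largest rises that lung did not share were those of MYBPC1, KCNE1 and ADH4. MYBPC1, a myosin-binding protein of slow skeletal muscle, was 5.87, 5.65, 6.21, 7.33 and 6.87 in young kidney and 8.71, 8.40, 10.24, 10.11 and 9.86 in adult kidney, and 5.09 to 6.06 over all lung arrays. The kidney rise of 3.08 ± 0.33 was about 8.44-fold, and the difference was -2.78 ± 0.47 (adjusted p = 0.00205). It was the member called among 31 skeletal and cardiac muscle genes, whose mean was 6.09 to 6.33 in young kidney and 6.26 to 6.52 in adult kidney. KCNE1, a subunit of potassium channels, was 9.06, 7.72, 8.26, 7.67 and 7.81 in young kidney and 10.50, 10.69, 10.05, 10.59 and 10.24 in adult kidney. Lung read 5.37 to 5.67 at both ages, and the difference was -2.32 ± 0.27 (adjusted p = 4.72e-05). ADH4, an alcohol dehydrogenase that also oxidises retinol, was 6.05, 7.57, 6.57, 7.26 and 6.93 in young kidney and 8.96, 8.71, 8.85, 8.44 and 8.89 in adult kidney. In lung ADH4 was 10.34 to 11.04 and 9.67 to 10.63, with a difference of -2.34 ± 0.32 (adjusted p = 3.4e-04).

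SERPINA14, a serpin known from uterine secretions of ruminants, rose by 1.83 in kidney, from 7.53 to 10.24 up to 10.04 to 11.25, with a difference of -2.15 ± 0.55 (adjusted p = 0.0324). That call was kept in 12 of 20 fits with an array left out (adjusted p up to 0.064 without array Lung-AD-286), and the adjusted p was 0.0691 without multi-transcript probe sets and 0.078 without arrays Lung-10WK-12 and Kidney-AD-444. SQLE, an enzyme that commits squalene to sterols, rose in kidney from 9.48, 9.20, 8.69, 8.66 and 8.95 to 10.24, 10.39, 10.46, 10.31 and 10.01, and lung read 10.69 to 11.39 and 10.89 to 11.56. It was the only member called among 16 cholesterol synthesis genes (-1.27 ± 0.24, adjusted p = 0.00635), of which 2 rose in kidney and 0 changed in lung. PPARGC1A, a coactivator of mitochondrial genes, fell by 0.52 in lung with a kidney change of 0.31 (difference -0.84, adjusted p = 0.0147, and 0.423 with the fetal arrays in the fit). It was called among 27 fatty acid oxidation genes, and 0 of 50 oxidative phosphorylation genes were called, against 3.22% of all genes.

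Genes that fell in kidney and did not pass in lung included ACSM2B, a medium-chain acyl-CoA synthetase of the proximal tubule, and CNMD, the cartilage glycoprotein chondromodulin. ACSM2B was 10.65, 10.44, 10.81, 10.78 and 10.84 in young kidney and 9.12, 7.80, 9.80, 9.52 and 9.43 in adult kidney, and 3.61 to 4.54 in lung, with a difference of 1.51 ± 0.37 (adjusted p = 0.0262, and 0.0539 after centring). CNMD was 8.47, 8.22, 10.20, 10.27 and 10.04 in young kidney, 2 of them low and 3 high, and 7.72 to 8.05 in adult kidney. Its difference of 1.65 (adjusted p = 0.0371) was kept in 4 of the 20 fits with an array left out, with adjusted p up to 0.0771 without array Kidney-10WK-10. The adjusted p of CNMD was 0.0577 with the replicate block on the shared 10-week numbers, 0.066 with the fetal arrays in the fit and 0.0682 without arrays Lung-10WK-12 and Kidney-AD-444. The related ACSM1 rose in lung instead, from 7.63 to 8.36 up to 8.77 to 9.25, while kidney read 11.14 to 11.58 and 10.71 to 11.19 (difference 1.25 ± 0.18, adjusted p = 6.5e-04). ACSM2B and ACSM1 were the members called among 31 proximal tubule genes, and 0 passed with a lower lung change. Of all genes 2.15% were called higher and 1.07% lower.

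Genes of the loop, distal nephron and collecting duct gave 3 higher and 1 lower of 27, and 8 of the 27 rose in lung. Of all genes 2.15% were called higher and 1.07% lower, and 6.54% rose in lung. KCNE1 was the lower member, and AQP3, CLDN10 and SCNN1G were the higher ones. CLDN10, a claudin of tight junctions, rose in lung from 10.57 to 10.73 up to 10.98 to 11.96, and kidney read 13.20 to 13.54 over both ages (difference 0.68, adjusted p = 0.030). SCNN1G, the gamma subunit of the epithelial sodium channel, rose from 7.89 to 8.33 up to 8.68 to 9.11 in lung (difference 0.66, adjusted p = 0.0359). CLDN10 was kept in 15 and SCNN1G in 9 of the 20 fits with an array left out (adjusted p up to 0.0524 without array Lung-10WK-8 and 0.0731 without array Lung-AD-204), and after centring their adjusted p was 0.0786 and 0.109. With the fetal arrays in the fit it was 0.381 for CLDN10 and 0.123 for SCNN1G, and that of CLDN10 was 0.0512 without arrays Lung-10WK-12 and Kidney-AD-444. Of 13 glomerular genes 1 was called higher and 1 lower, the latter being CDKN1C. The higher was SYNPO, an actin-binding protein of podocytes, which rose by 0.61 in lung and differed by 0.78 (adjusted p = 0.0246). For SYNPO the adjusted p was 0.269 with the fetal arrays in the fit, 0.147 as the mean of its probe sets and 0.0537 without arrays Lung-10WK-12 and Kidney-AD-444.

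For 9 genes both organs changed, in opposite directions. AQP3, a channel for water and glycerol in airway cells and collecting ducts, was 7.75, 7.67, 7.96, 7.67 and 7.46 in young lung and 8.39, 8.66, 8.65, 8.39 and 8.44 in adult lung. In kidney it was 9.66, 9.84, 9.85, 10.09 and 9.62, then 8.92, 8.84, 8.77, 8.87 and 8.35. The ages were separate in each organ, and the organs lay closer together in adults. AQP3 rose by 0.81 in lung and fell by 1.06 in kidney, a difference of 1.87 ± 0.17 (adjusted p = 1.88e-06). ASGR1, a receptor that clears desialylated glycoproteins, rose by 1.16 in lung and fell by 1.08 in kidney, with lung arrays at 6.69 to 7.27 and 7.74 to 8.67 and kidney arrays at 8.58 to 9.42 and 7.58 to 8.23 (difference 2.24 ± 0.26, adjusted p = 4.46e-05, and 0.178 with the fetal arrays in the fit). SLC44A4, a transporter of epithelial membranes, rose by 1.02 and fell by 0.75 (difference 1.76, adjusted p = 2.5e-04). CFP, properdin, which stabilises the alternative complement convertase, rose by 0.94 and fell by 0.57 (difference 1.51, adjusted p = 3.8e-04). FGF11, an intracellular member of the fibroblast growth factor family, rose by 0.53 and fell by 0.77 (difference 1.3).

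In the other direction, PARP8, a mono-ADP-ribosyltransferase, fell by 0.54 in lung and rose by 1.11 in kidney. It was 8.73 to 9.45 and 8.34 to 8.70 in lung and 7.46 to 8.12 and 8.51 to 9.31 in kidney, separate in each organ (difference -1.65 ± 0.24, adjusted p = 5.7e-04). GAS2, a cytoskeletal protein linked to growth arrest, was 7.57, 7.64, 7.33, 7.96 and 7.35 in young lung and 6.94, 6.98, 7.05, 6.29 and 6.43 in adult lung, against 7.23, 7.65, 7.39, 6.96 and 8.09 and then 8.12, 8.14, 8.25, 8.40 and 8.41 in kidney. The organs overlapped at 10 weeks and were separate in adults (difference -1.63 ± 0.26, adjusted p = 0.00126). TOX2, a nuclear HMG-box protein, fell by 0.65 in lung and rose by 0.86 in kidney (difference -1.50, adjusted p = 8.8e-04), but a dimmer TOX2 probe set gave 0.27. MLLT3, a component of transcription elongation complexes, fell by 0.45 and rose by 0.78 (difference -1.23).

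Among the 33 genes called in the difference and in neither organ alone were AFP, APOC3 and LOX. AFP, the fetal serum protein alpha-fetoprotein, was 4.48, 4.11, 4.13, 4.03 and 4.81 in young lung and 7.68, 5.70, 5.08, 4.68 and 5.07 in adult lung, and 7.14, 8.83, 7.76, 7.96 and 6.72 in young kidney and 5.67, 7.28, 5.63, 6.23 and 5.25 in adult kidney. The ages overlapped in each organ, and array Lung-AD-204 stood above the other lungs. The difference of 3.0 ± 0.67 (adjusted p = 0.0159) was -0.25 in a second AFP probe set, the one that remains when multi-transcript probe sets are left out. APOC3, an apolipoprotein of the liver, was 7.27 to 10.28 in young lung, highest in array Lung-10WK-12, 6.14 to 7.82 in adult lung, 6.71 to 8.69 in young kidney and 8.22 to 9.78 in adult kidney (difference -2.91 ± 0.66, adjusted p = 0.0192). With the fetal arrays in the fit the adjusted p was 0.172 for AFP and 0.0841 for APOC3. AFP and APOC3 were the members called among 33 liver genes, whose mean was 6.23 to 6.96 in adult lung, highest in array Lung-AD-204.

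Of the 41 lists the remaining called members were few. DES, the muscle filament desmin, rose in lung from 7.24 to 7.84 up to 8.17 to 8.94 (difference 0.94, adjusted p = 0.0147), 1 of 19 smooth muscle and pericyte genes. ACAN, aggrecan, the substrate of ADAMTS4, rose from 5.50 to 5.74 up to 6.01 to 6.6 (difference 0.72, adjusted p = 0.00746), while its other 2 probe sets gave 0.26 and -0.14. ITIH4, an acute-phase protein, rose by 0.63 in lung (difference 0.87, adjusted p = 0.0235, and 0.593 with the fetal arrays in the fit), 1 of 27 complement and acute phase genes. In the difference, 0 were called among 22 alveolar type I and lung capillary genes, 9 lung development genes, 11 nephron progenitor genes, 14 inner medulla genes, 21 adipose genes, 17 adrenal genes, 16 nerve and glia genes and 7 circadian clock genes. The share called over all genes was 3.22%. The 6 mesothelium and peritoneum genes had 0 called, although their mean was 7.71 to 8.03 in young lung and 8.16 to 8.66 in adult lung.

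**Figure D5:**
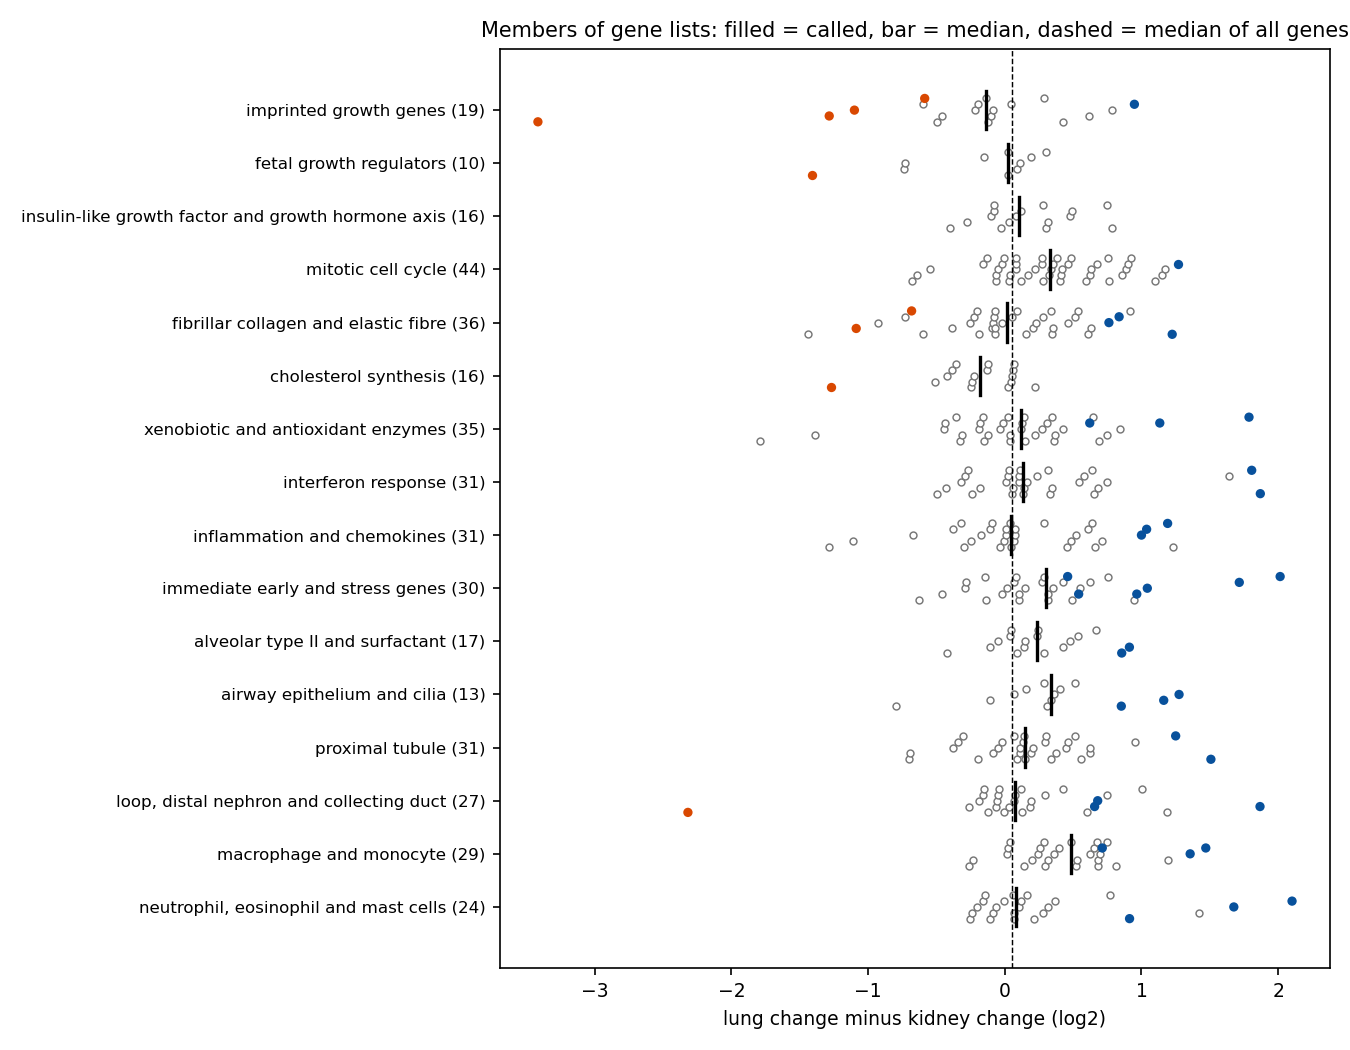
Difference between the lung and the kidney change (log2, horizontal axis) for every measured member of 16 gene lists, with the number measured in parentheses, filled symbols for members called (blue higher, orange lower in the lung change), a bar for each list's median and a dashed line at the median of all genes, 0.05. The immediate early and stress list has 6 called members, all on the right, and the imprinted list has 4 on the left and 1 on the right.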

How the data were processed

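The authors deposited a table of log2 expression values for 24128 probe sets, made with RMA and Partek per the submitters' processing notes; their versions are not given in the sources used here. Normalising by RMA forces arrays toward 1 distribution and compresses changes of dim probe sets. All table columns mapped to a sample (0 unmapped). Of the probe sets, 13318 had 1 gene symbol, 86 several and 10724 none, 112 were controls, and 2913 genes had more than 1 probe set. Array medians were 6.57 to 6.81. Detection calls, sequences and genome positions were not used here.

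A limma 3.58.1 model of the 20 arrays was run in R 4.3.3 (lmFit, eBayes; 4 group means, two-sided tests, Benjamini-Hochberg adjustment over 9155 genes, threshold 0.05); fetal arrays stayed out. The number of arrays limits the precision, and p-values measure the spread between these samples, which the design text calls biological replications. The members, gene lists and tests were chosen with earlier results of these data known. Named genes are the 12 largest differences per direction, up to 4 called members per list by adjusted p, up to 6 genes with opposite changes, and 13 growth genes (12 measured); others were chosen after their values were seen. The fit was tested on simulated data.

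Lung and kidney at 10 weeks share the title numbers 7, 8, 10 and 11. Deviations of same-numbered arrays from their group means correlated at 0.10, 0.20, 0.11 and 0.15. Differently numbered pairs ranged from -0.44 (lung 7 with kidney 11) to 0.47 (lung 7 with kidney 8). These correlations therefore cannot show whether the numbers pair the samples, and the labels do not say so. The calls come from the fit without a block, and the number entered as a block in alternative fits only. Adult numbers are not shared. With the number as a random replicate block 385 genes were called, 248 higher and 137 lower, including all 295.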

Additional observations from a re-analysis of the deposited data

Results flagged for a closer look

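The organs differed in their change for 295 genes by the interaction test. For 9 of these both organs passed the test in opposite directions, with differences of 2.24 (ASGR1), 1.87 (AQP3), 1.76 (SLC44A4), 1.51 (CFP), 1.3 (FGF11), -1.23 (MLLT3), -1.50 (TOX2), -1.63 (GAS2) and -1.65 (PARP8).

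In the named genes, single arrays stood far from the other 4 of their group, by Dixon's test at the 95% level, in 25 of 316 groups of 5 arrays. Chance flags about 1 in 20 groups. Array Lung-10WK-12 had 5 of the 25: it was high for S100A1 (9.27 against 7.90 to 8.28), APOC3 (10.28 against 7.27 to 8.10), LOX (8.17 against 7.38 to 7.45) and EZH2 (11.23 against 10.30 to 10.47), and low for NUDT11 (4.64 against 5.64 to 5.99). Array Lung-10WK-7 was high for CCN5 (7.75 against 5.81 to 6.14) and PLAGL1 (10.96 against 10.38 to 10.45), and array Lung-10WK-8 for FOSB (9.14 against 7.35 to 7.77) and ATF3 (9.90 against 8.86 to 9.14).

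Array Kidney-AD-444 was low for AQP3 (8.35 against 8.77 to 8.92) and GPX3 (12.56 against 13.30 to 13.58) and high for CFP (6.39 against 5.85 to 5.98). The other adult kidney values were CCN5 in array Kidney-AD-432 (4.48), EPHX2 in array Kidney-AD-441 (12.16) and IL1A in array Kidney-AD-434 (3.59). In adult lung, array Lung-AD-204 was low for TMEFF1 (9.05 against 9.80 to 9.99) and IL1B (10.04 against 10.63 to 10.72), and array Lung-AD-297 was high for MAGEL2 (8.22) and low for IL1A (7.0). EPHX2 was high in array Lung-AD-286 (10.06) and IGF1 low in array Lung-AD-287 (6.81). In kidney at 10 weeks, EDN1 was high (8.32) and SCNN1G low (10.04) in array Kidney-10WK-9, IL1A was high in array Kidney-10WK-7 (4.09) and IGF1R was low in array Kidney-10WK-8 (6.23).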

How the results depend on the processing

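Against 295 genes called (197 higher, 98 lower), array quality weights gave 448 (162 lower), the replicate block restricted to the shared 10-week numbers (arrays Lung-10WK-12 and Kidney-10WK-9 left out) 525 (334 higher, 191 lower), and a test against a 1.5-fold difference 12 (6 higher, 6 lower). Lower calls numbered 175 after quantile normalisation, 178 after centring and 61 with all 30 arrays in the fit, which called 198 in all. Leaving out each array in turn gave 202 to 373 genes, 126 to 237 higher and 75 to 140 lower. Higher calls moved by over 1.5 times without array Kidney-10WK-10 (127) or array Kidney-AD-442 (126). Both arrays with the lowest correlations left out gave 298, of which 223 were among the 295. The causes were not tested.

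Of the 68 called genes named by rule, 58 kept the call in all 20 fits that left out an array. With all 30 arrays in the fit 43 kept it and 25 lost it. The replicate block with all 10-week numbers lost 0, and the replicate block on the shared numbers lost 2, CXCR1 (adjusted p = 0.0606) and CNMD (0.0577), and added IGF1 (0.0487). Quantile normalisation lost 4, centring 10, both low arrays left out 8, the mean of all probe sets 8 (NNAT, PPARGC1A, EPHX2, ROPN1L, ACSM2B, SYNPO, CDKN1C and ACAN) and array weights 2 (MT1A and SCNN1G). Direction reversed for AFP without multi-transcript probe sets (-0.25) and for values that were never called: GHR as the mean of its probe sets (-0.039), MEST as the mean of its probe sets (-0.019), IGF2BP1 after centring (-0.025), and EZH2 after centring (-0.0046). Leaving out each array in turn gave -0.077 (without array Lung-AD-286) to 0.257 for GHR and -0.025 (without array Lung-AD-204) to 0.287 for EZH2. IGF1 was called as the mean of its probe sets (-0.51, adjusted p = 0.0146). Signal over background is unknown, so dim genes were not called absent.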
